A study of Homo sapiens with 6 samples.

Results

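The baseline transcripts of the human ovarian carcinoma line IGROV-1 were read from 3 single-colour Illumina bead arrays hybridised with total RNA of cells that had received saline. They are 3 of the 6 arrays of the series. The other 3 carried RNA of cells given CpG-ODN, a synthetic DNA with unmethylated CpG motifs, at 10 µM for 24 h, and none of them entered any value here. The labels used here give no time for the saline cells, and nothing in the labels says that the 3 saline samples were separate cultures. The line stands for 1 tumour grown as cells in plates with serum, with no stroma, vessels or immune cells around it. A gene was counted as detected when at least 1 of its probes had a detection p-value under 0.01 on each of the 3 arrays. Such a p-value is usually the share of negative control beads at least as bright as the probe. By this rule 8653 of 18776 genes with a named probe were detected, which is 46.1%.

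The level of a gene is the log2 of its normalized intensity, taken from its brightest detected probe, and is given as mean ± SD over the 3 arrays. Its rank counts from 1, the highest, to 8653. Each probe binds its target with a strength of its own, so a rank orders probe signals and only loosely transcripts, and no level of one gene is read here as more transcript than another's. "Not detected" says that the signal was not above the controls, not that the transcript was missing. Some probes fail in this way: RPL10, a ribosomal protein that every growing cell makes, lay at 4.99, 5.14 and 5.36 on saline 1, 2 and 3 and its second probe was no brighter. Of the 75 ribosomal protein genes with a probe, picked by the pattern of their symbols, 73 were detected, and RPL10 and the muscle form RPL3L were not.

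Carcinomas of the ovary are thought to arise largely from Müllerian-type epithelium, the tissue of the fallopian tube and uterus, which is marked by the transcription factor PAX8. Simple epithelia are built on the keratin pair KRT8 and KRT18 and carry the adhesion molecule EPCAM. MUC16 encodes the CA125 antigen shed by many of these tumours. Many proteins come in families of close relatives of which a cell type uses a few, so that the choice among paralogues describes a cell line as its pathways do.

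The 3 arrays were alike in depth of signal. Between 13228 and 13651 of 48803 probes were detected on each, the median raw intensity lay between 120.4 and 120.8, and the brightest probe reached 58592 to 60133. Probes detected on no array had a median level of 5.09, and 95% of them lay below 5.94 to 5.95. Detected genes ran from 6.63 to 15.78 with a median of 9.44, and their middle 50% lay between 8.20 and 10.78. Protein-coding genes were detected in 8496 of 17297 cases (49.1%), long non-coding RNAs in 36 of 1027 (3.51%) and small nucleolar RNAs in 34 of 59 (57.6%). Detection was also more frequent in genes with more probes: it was 41.7% for genes with 1 probe, 52.7% with 2 and 59.8% with 3 or more. By the rule 1 detected probe sufficed, and what lay behind this rise was not tested.

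The highest ranks were held by genes of protein synthesis, the cytoskeleton and iron storage. EEF1A1, which brings aminoacyl-tRNA to the ribosome, ranked first with 15.82, 15.85 and 15.66 on saline 1, 2 and 3. RPL41, a small ribosomal protein, followed with 15.72, 15.80 and 15.80, and the ranges of these genes overlap, so their order is not settled. ACTG1, the cytoplasmic gamma actin, stood at 15.72 ± 0.06, and FTL, the light chain of the iron store ferritin, at 15.69 ± 0.09. TUBA1B at 15.52 ± 0.08 and TUBA1C at 15.45 ± 0.04 are alpha tubulins whose sequences are so close that probes may not tell them apart. TXN, the redox protein thioredoxin, stood at 15.45 ± 0.02, the helicase EIF4A1 of translation initiation at 15.35 ± 0.07, and ATP5F1B, the catalytic chain of the mitochondrial ATP synthase, at 15.35 ± 0.23. ATP5F1B was lower on saline 1 (15.08) than on saline 2 (15.46) and saline 3 (15.51). Ribosomal protein genes picked by symbol made up 35 of the 100 highest ranks, and the median rank of the 73 detected ones was 116. The symbol pattern missed RPL36AL, which ranked 93. The pseudogene RPL13AP20 ranked 14 with 15.49 ± 0.09, and its signal may come from its parent gene.

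Some of the highest ranks rested on 1 probe while other probes of the same gene were near background. Of the 25 genes ranked highest, 15 had several probes, and in 7 of these the brightest and the dimmest probe lay over 5 log2 units apart. LAIR1, an inhibitory receptor of leukocytes, ranked 5 with 15.59, 15.63 and 15.63 on saline 1, 2 and 3 from one probe. Its other probe read 6.03, 6.19 and 6.03 and was detected on no array. SLC7A5P2, a pseudogene of an amino acid transporter, ranked 11 at 15.52 ± 0.02, and its 2 other probes lay at 5.05 and 5.30. F2R, the thrombin receptor, ranked 21 at 15.36 ± 0.01 against 9.15 for its second probe, and CLUAP1, a protein of cilia, ranked 25 at 15.34 ± 0.12 with 4 further probes between 6.82 and 9.25. Ribosomal protein genes were among them too: RPL32 spread from 6.44 to 15.37 over 4 probes and RPL41 from 8.63 to 15.77 over 2. In such genes the level in these cells is not settled by the arrays.

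**Figure D1:**
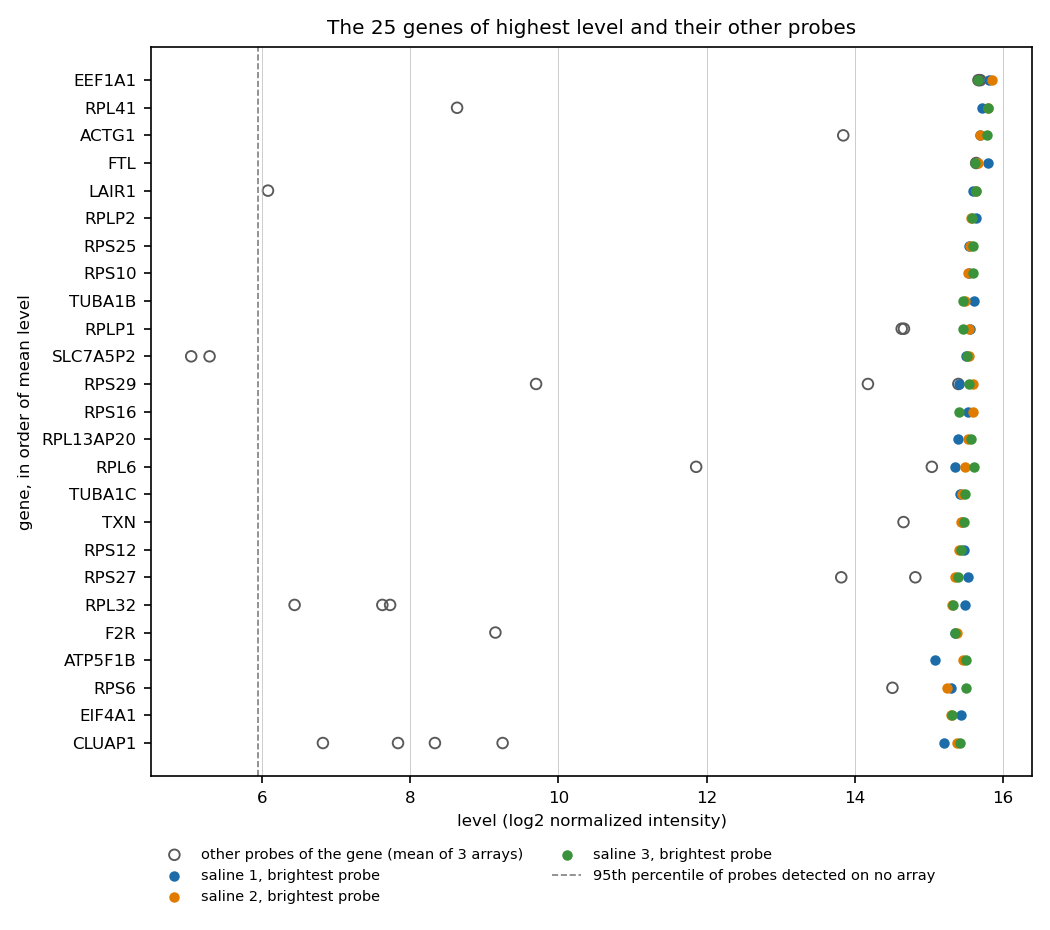
Levels (log2 normalized intensity, x axis) of the 25 highest-ranked genes (y axis), with the brightest probe of each gene on saline 1, 2 and 3 as filled points, its other probes as open circles (mean of the 3 arrays), and a dashed line at the 95th percentile of probes detected on no array. LAIR1 and SLC7A5P2 have other probes at 5.05 to 6.08 although their brightest probes lie above 15.

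Across the array the same disagreement was common. Of 3369 detected genes with several probes, 1376 had every probe detected and 1993 did not. The gap between brightest and dimmest probe had a median of 2.64, exceeded 5 in 517 genes and exceeded 8 in 47. Among the 100 highest ranks 23 genes had a gap over 5. CCR6, LILRB3 and ITIH5, also among those ranks, are named after their values were seen. CCR6, a chemokine receptor of lymphocytes, read 14.84, 14.52 and 14.80 with one probe and 5.88 and 4.91 as means of the other 2. LILRB3, a myeloid receptor, read 14.50 against 4.89, and ITIH5, a secreted hyaluronan-binding protein, read 14.99 against 4.87 to 5.23 for 4 other probes. What these bright probes bind was not tested.

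Of the 82 genes of ranks 1 to 100 with a promoter window, 31.7% share a pattern of letters at their transcription start. Transcripts of the translation machinery are known to start with a C and a run of pyrimidines, the terminal oligopyrimidine tract through which mTOR signalling controls their translation. The windows of 6 of the 9 highest-ranked genes are shown, without FTL, LAIR1 and RPS10. They run from 10 bases before to 20 bases from the annotated start (RefSeq, GRCh38.p14), on the strand of the gene. The first 5 transcribed bases are in capitals where they are a C and 4 pyrimidines. EEF1A1 lies on the minus strand of chromosome 6 (73521013 to 73521042), RPL41 on the plus strand of 12 (56116623 to 56116652), RPLP2 on the plus strand of 11 (809957 to 809986) and RPS25 on the minus strand of 11 (119018324 to 119018353). ACTG1 on the minus strand of 17 (81512780 to 81512809) and TUBA1B on the minus strand of 12 (49131376 to 49131405) have no such start and are shown for contrast.
EEF1A1: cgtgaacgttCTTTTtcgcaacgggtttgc
RPL41: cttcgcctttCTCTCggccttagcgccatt
RPLP2: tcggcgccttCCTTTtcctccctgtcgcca
RPS25: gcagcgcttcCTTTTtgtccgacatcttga
ACTG1: cgcggtcggtctcagtcgccgctgccagct
TUBA1B: gccccgccctagtgcgttacttacctcgac
The first 4 genes encode parts of the translation machinery and the last pair parts of the cytoskeleton, and all 6 are among the 9 highest ranks.

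Windows of 300 bases, 250 before the start and 50 from it, were matched by symbol to 14822 of the 18776 genes. A C followed by 4 letters C or T as the first 5 transcribed bases was found in 41 of 63 ribosomal protein promoters (65.1%) and in 4.07% of all 35116 windows of the RefSeq table. By level it was found in 31.7% of the 82 matched genes of ranks 1 to 100, in 13.3% of ranks 101 to 500, in 8.39% of ranks 501 to 1000, and in 4.80% to 5.19% of the lower ranks. Genes that were not detected had it in 3.54%. Without the ribosomal protein genes picked by symbol, 6 of 51 matched genes of the 100 highest ranks had it (11.8%). Those 51 can include RPL36AL, which the symbol pattern missed, and ribosomal pseudogenes.

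The TATA motif was searched on the gene's strand between 40 and 16 bases before the start, in the form TATAAA, in the overlapping form TATATA, and in the further form TATAAG. It was found in 15.9% of ranks 1 to 100, 6.63% of ranks 101 to 500 and 2.13% to 3.50% of lower ranks. It was found again in 8.05% of the genes not detected, against 3.78% of all windows. On the opposite strand the same letters were found in 13.4% of ranks 1 to 100 and 2.04% of all windows. TATATA reads the same on both strands, so every hit of that form counts on both. Among the same 51 genes of the 100 highest ranks outside the ribosomal protein set, 9 had the motif on the gene's strand (17.6%). CpG dinucleotides divided the genes in another way: detected genes had a median of 27 in the window and genes not detected 12. That number hardly moved with level, with medians of 23.5 to 28 over all the rank groups. These are shares of letters at annotated starts, and whether IGROV-1 cells use these starts was not measured.

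**Figure D2:**
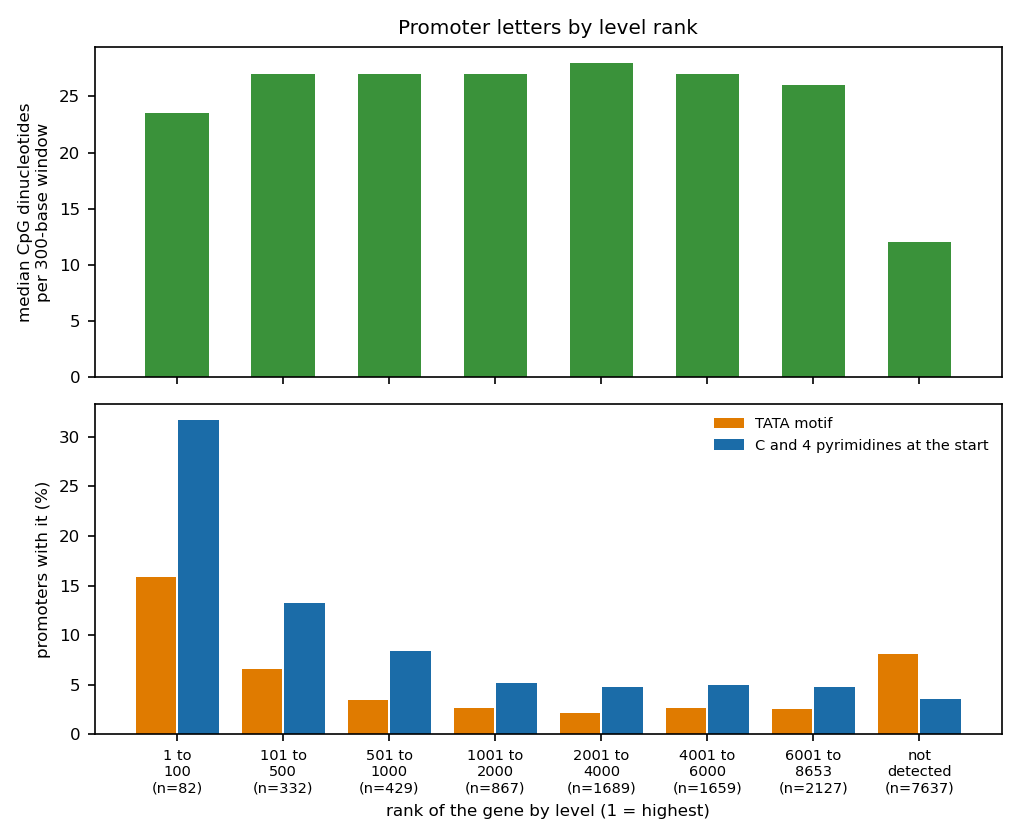
Promoter letters by level rank (x axis, 1 is the highest, with the number of matched promoters under each group). The upper bars give the median CpG dinucleotides per 300-base window, 23.5 to 28 in detected genes and 12 in genes not detected, and the lower bars the percent of promoters with the TATA motif or with a C and 4 pyrimidines at the start, both highest at ranks 1 to 100.

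Of the 5 markers chosen for the line, EPCAM, PAX8, KRT8 and KRT18 were detected and MUC16 was not, against 46.1% of all genes detected. EPCAM read 12.52, 12.50 and 12.60 on saline 1, 2 and 3 and ranked 603 by its brighter probe. The other EPCAM probe was also detected and averaged 7.59, so its level is not settled. PAX8 read 10.27, 10.58 and 10.74 (rank 2540), its second probe averaged 9.80, and its remaining probe averaged 5.78 and was not detected. KRT8 read 9.52, 9.70 and 9.90 and KRT18 8.0, 7.99 and 7.81, so that the keratin pair lay at rank 3839 and 6913. All 4 genes were well clear of background on every array.

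MUC16 has 1 probe, which read 5.97, 5.72 and 5.90 with detection p-values of 0.0211, 0.0448 and 0.0329. It would pass at a threshold of 0.05 and lies close to the background on all 3 arrays. Of the markers of the label, the CA125 gene is therefore the one at the limit of detection.

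Among 21 Müllerian and ovarian carcinoma genes 6 were detected (28.6%, beside 46.1% of all genes), and 2 when every probe of a gene had to pass. CD24, a small surface glycoprotein, stood at 12.96 ± 0.19 and FOLR1, the folate receptor targeted in ovarian cancer, read 11.49, 11.46 and 11.69. MECOM, a zinc finger factor amplified in many ovarian tumours, stood at 11.25 ± 0.15 with 1 of its 2 probes, the other reading 4.97. SOX17, a partner of PAX8 in such cells, stood at 10.10 ± 0.17 and the mucin MUC1 at 9.97 ± 0.07. WT1, the factor that marks serous carcinoma, was not detected with either of its probes, which averaged 5.34 and 5.05. Nor were the hormone receptors ESR1 and PGR, the mesothelial surface protein MSLN or the homeobox gene EMX2 detected. Of the Müllerian list, PAX8, SOX17 and FOLR1 were read without WT1 or the hormone receptors.

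Of 25 epithelial junction and keratin genes 15 were detected (60%, beside 46.1% of all genes), led by KRT19, the smallest keratin, at 13.40 ± 0.12 (rank 292). The tight junction scaffold TJP1 (10.96 ± 0.13), the junction protein JUP (10.50 ± 0.10), the protease inhibitor SPINT2 (11.87 ± 0.06) and the membrane protein MAL2 (11.94 ± 0.04) were among them. CDH1, the epithelial cadherin, read 7.22, 6.87 and 7.10 and ranked 8307 of 8653, just above detection. CDH2, the neural cadherin, read 9.57, 9.69 and 9.29 and ranked 4191. The epithelial splicing regulators ESRP1 and ESRP2 and the epithelial factor GRHL2 were not detected, while RBFOX2, of another splicing family, was detected at 9.30 ± 0.24.

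Of 22 mesenchymal genes 5 were detected (22.7%, beside 46.1% of all genes). VIM, the intermediate filament of mesenchymal cells, read 13.87, 13.79 and 13.70 and ranked 203. ACTA2 at 11.02 ± 0.13, the factor TWIST1 at 7.92 ± 0.12 and the surface protein THY1 at 6.79 ± 0.11 were the others beside CDH2. Fibronectin (FN1), the collagens COL1A1 and COL1A2, and the factors ZEB1, ZEB2 and SNAI1 were not detected. A filament and a cadherin of mesenchymal cells were read together with EPCAM and KRT19, and these matrix genes were not.

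Apart from the neural list, the lists of other cell types had 7.69% to 27.3% of their members detected, beside 46.1% of all genes. The Müllerian list, at 28.6%, lay just above that range. Of 19 leukocyte genes CD68 (9.88 ± 0.03), the actin bundler LCP1 (8.77 ± 0.29) and CD14 (6.66 ± 0.06) were detected, while the pan-leukocyte gene PTPRC read 5.08 to 5.10. CD68 is a lysosomal protein that other cells also make. Of 11 endothelial genes VWF (9.42 ± 0.10) and ENG (7.51 ± 0.42) were detected and PECAM1, CDH5 and KDR were not. Of 13 granulosa and theca genes INHBB, an activin chain, stood at 9.98 ± 0.11 and CYP11A1 at 7.75 ± 0.13, without FOXL2, STAR or CYP19A1. Among 10 germ and pluripotent cell genes ZP3, an egg coat protein, was detected with 3 of its 4 probes. Its brightest probe read 11.58, 11.58 and 11.63. The rank percentile of ZP3 was 85.0 with that probe and 1.27 with the dimmest detected probe, so its level is not settled. Among 13 liver and intestine genes the intestinal cadherin CDH17 was detected at 10.84 ± 0.10, and ALB, APOA1, CDX2 and VIL1 were not. Of 14 neural genes 6 were detected (42.9%, beside 46.1% of all genes), with the beta tubulin TUBB3 at 10.96 ± 0.05 and the neurofilament NEFL at 9.04 ± 0.13. Of 12 muscle genes the troponin TNNT1 was detected at 8.21 ± 0.27, and of 11 squamous genes KRT10 at 11.12 ± 0.28, SFN at 10.64 ± 0.16 and TRIM29 at 7.76 ± 0.18, without KRT5 or KRT14.

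**Figure D3:**
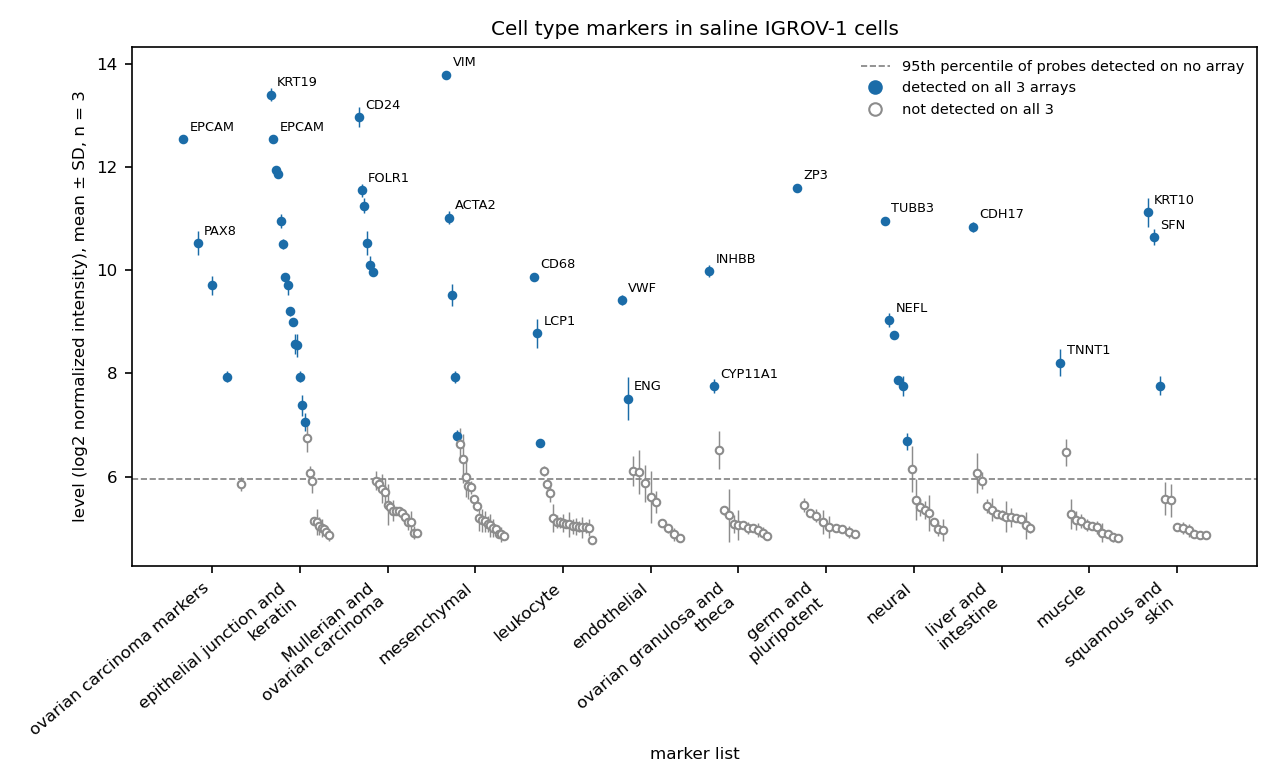
Levels (log2 normalized intensity, mean ± SD, n = 3, y axis) of the members of the marker lists (x axis), filled where detected on all 3 arrays and open where not, with the brightest of each list named. The brightest detected probes of EPCAM, KRT19, CD24 and VIM lie above 12.5. Most leukocyte, endothelial, germ cell and muscle genes lie at 5 to 6, near the dashed line. That line marks the 95th percentile of probes detected on no array.

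Of 34 lineage transcription factors 10 were detected (29.4%, beside 46.1% of all genes), with MECOM, PAX8, LHX2 (9.67 ± 0.11), FOXA1 (8.97 ± 0.25), PAX7 (8.96 ± 0.16) and GATA2 (8.47 ± 0.13) ranked highest, and WT1, PAX2, EMX2, LHX1, GATA4 and GATA6 not detected. Of 19 SOX factors 5 were detected (26.3%): SOX17, SOX4 (9.55 ± 0.13), SOX8 (9.17 ± 0.13), SOX13 (8.38 ± 0.15) and SOX18 (8.05 ± 0.09). SOX2, a factor of stem cells, was not. Of 16 KLF factors 7 were detected (43.8%), KLF2 at 11.15 ± 0.04 and KLF13 at 10.43 ± 0.11 first.

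The HOX genes, which fix position along the body axis and stand on the chromosome in the order of their use, were detected in part. The shares were 40% in HOXB, 11.1% in HOXC and 66.7% in HOXD, beside 46.1% of all genes. In the HOXB cluster the 4 neighbours HOXB5 (10.41 ± 0.16), HOXB6 (8.07 ± 0.19), HOXB7 (10.61 ± 0.08) and HOXB8 (8.95 ± 0.07) were detected. HOXB1 to HOXB4 on one side and HOXB9 and HOXB13 on the other were not. HOXB9 read 5.18, 5.00 and 5.09, against 8.91, 8.91 and 9.03 for its neighbour HOXB8. In the HOXC cluster 1 of 9 genes was detected, HOXC6 at 7.89 ± 0.26, with 1 of the other genes, HOXC11, detected on 1 array. HOXC6 passed with 1 of its 4 probes, and the dimmest averaged 5.10. In the HOXD cluster 6 of 9 genes were detected between 7.29 and 8.88, with HOXD11 first at 8.89, 8.89 and 8.87, and HOXD4, HOXD10 and HOXD12 not. HOXA2, the single HOXA gene used here, was detected at 7.10 ± 0.08.

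**Figure D4:**
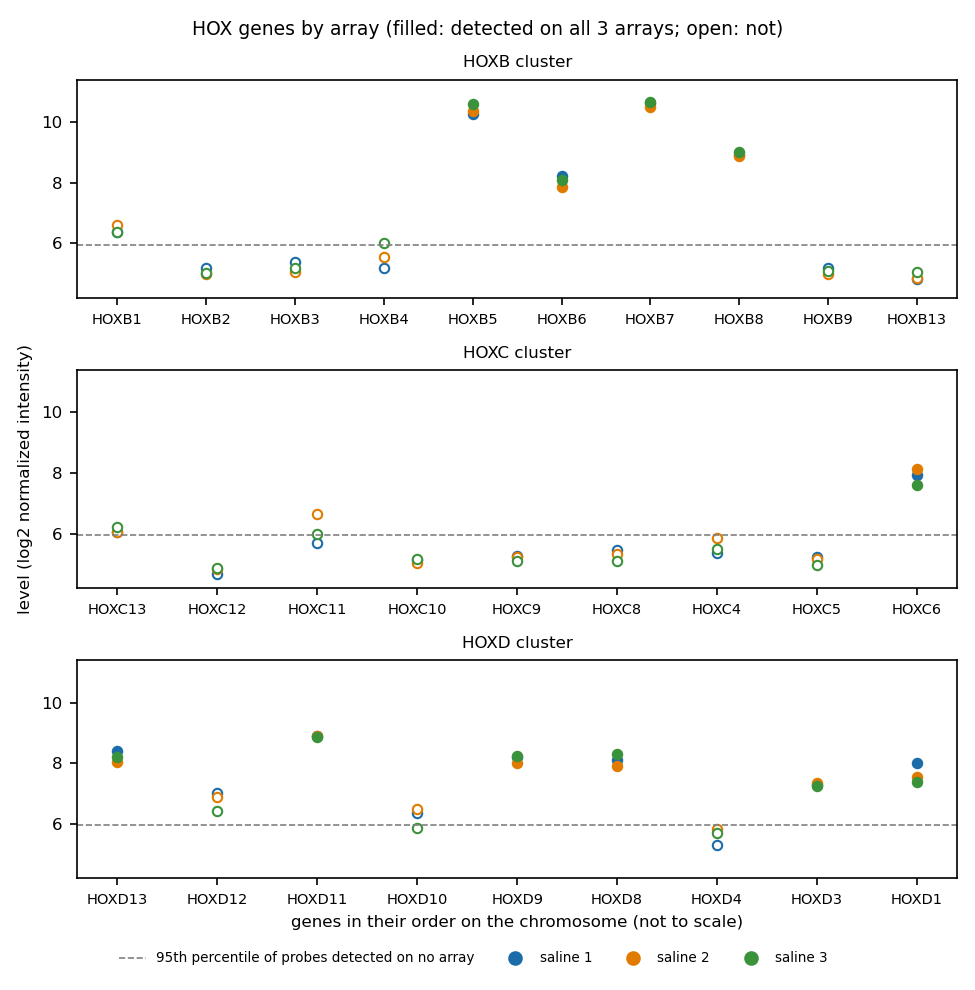
Levels (log2 normalized intensity, y axis) of the HOXB, HOXC and HOXD genes on saline 1, 2 and 3, placed in the order of their start coordinates (x axis, not to scale), filled where detected on all 3 arrays. HOXB5 to HOXB8 form a detected block between genes near the dashed background line, and HOXC6 is the detected gene of its cluster. HOXB6 passed with 1 of its 2 probes and HOXC6 with 1 of its 4.

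Signalling pathways differed in how many of their parts were read, and 46.1% of all genes were detected. In the Wnt lists the shares were 21.1% of ligands, 66.7% of receptors and 20% of antagonists. In the Wnt pathway, in which secreted ligands bind Frizzled receptors and stabilise beta-catenin, 4 of 19 ligands were detected: WNT7A read 10.40, 10.34 and 10.53, WNT7B stood at 9.46 ± 0.16, WNT2B at 7.08 ± 0.07 and WNT16 at 6.82 ± 0.26. Of 18 receptors 12 were detected, led by FZD9 (10.62 ± 0.13), RYK (10.57 ± 0.09), LRP5 (9.45 ± 0.26) and FZD4 (9.38 ± 0.10). Beta-catenin itself, CTNNB1, stood at 10.71 ± 0.10 with 3 of 7 probes detected. Of 15 antagonists 3 were detected, NKD2 (9.02 ± 0.16), ZNRF3 (8.74 ± 0.11) and DKK3 (6.82 ± 0.25), while AXIN2, a feedback target of the pathway, passed on 1 array and LEF1 on none.

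In the Notch pathway, where a ligand on one cell binds the receptor on the next and so exposes it to proteases that cut it, the receptors NOTCH1 (10.20 ± 0.12), NOTCH3 (7.52 ± 0.29) and NOTCH2 (7.07 ± 0.32) and the ligands DLL3 (10.23 ± 0.11), JAG2 (9.58 ± 0.24) and JAG1 (8.76 ± 0.01) were detected. NOTCH4, DLL1 and DLL4 were not. DLL3 is known to act as an inhibitor within the cell. Of 14 targets and cofactors 8 were detected (57.1%, beside 46.1% of all genes), with the repressor HES4 at 12.15, 12.17 and 12.52 (rank 759). Few Hedgehog genes were detected (13.3%). Of 15, DISP1 (9.04 ± 0.06), which releases the ligand, and GAS1, a co-receptor, were detected. SHH, the receptors PTCH1 and SMO and the factors GLI1, GLI2 and GLI3 were not.

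The Hippo pathway, a kinase chain that holds back the transcriptional co-activators YAP1 and TAZ, had 14 of 21 genes detected. That is 66.7%, beside 46.1% of all genes. The kinases STK4 (11.04 ± 0.09) and STK3 (10.92 ± 0.15), YAP1 (10.49 ± 0.24), the target CCN1 (10.48 ± 0.03) and the cofactor VGLL4 (10.54 ± 0.04) ranked highest, apart from MST1. MST1 (11.39 ± 0.10) is on the list by its symbol and encodes macrophage stimulating protein, not a Hippo kinase. TAZ (WWTR1) stood at 8.96 ± 0.04, and of the TEAD factors that carry both to DNA TEAD2 (10.04 ± 0.23) and TEAD4 (9.68 ± 0.07) were detected and TEAD1 and TEAD3 were not.

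Of 49 receptor tyrosine kinases 15 were detected, a share of 30.6% against 46.1% of all genes. FGFR3, a fibroblast growth factor receptor, ranked first with 11.50, 11.63 and 11.69, followed by RYK, ERBB2 (10.47 ± 0.06), DDR1 (9.98 ± 0.09), EPHB4 (9.91 ± 0.07) and MET (9.19 ± 0.13). KIT, RET, ALK, AXL, FLT3 and INSR were not detected. Of the FGFR3 probes 1 of 2 was detected, and of the ERBB2 probes 1 of 3. Of 24 genes of PI3K, AKT and mTOR signalling 16 were detected (66.7%). The mTOR activator RHEB stood at 12.67 ± 0.05, the S6 kinase RPS6KB2 at 12.50 ± 0.04 and AKT1 at 11.98 ± 0.20. Of the AKT1 probes 2 of 3 were detected and the dimmest averaged 5.15. The other RPS6KB2 probe was also detected and averaged 8.18, so neither level is settled. AKT2, with 1 probe, was not detected. Of 3 class I PI3K catalytic chains with a probe PIK3CB was detected at 8.25 ± 0.43 and PIK3CD and PIK3CG were not.

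All 15 listed genes of glycolysis passed, with a median percentile of 92.0 among detected genes, where 100 is the highest level. GAPDH stood at 15.17 ± 0.06, ENO1 at 14.74 ± 0.08, LDHA at 14.66 ± 0.16 and the glucose transporter SLC2A1 at 10.42 ± 0.18. All 14 listed genes of the tricarboxylic acid cycle passed, led by MDH2 at 14.95 ± 0.07. Their median percentile was 75.6. Of 20 genes of the pentose phosphate path and nucleotide synthesis 18 passed, with a median percentile of 86.2. TALDO1 (13.82 ± 0.17), TKT (13.07 ± 0.08) and PAICS (13.05 ± 0.08) ranked highest, though the other TALDO1 probe read 5.37 and was not detected, so its level is not settled. UMPS and DHODH, both of pyrimidine synthesis, did not pass. Of 15 genes of serine and glutamine metabolism 13 passed, with the first serine enzyme PHGDH at 12.90 ± 0.08, PSAT1 at 12.53 ± 0.05 and the amino acid transporter SLC7A5 at 12.74 ± 0.04, and glutamine synthetase (GLUL) did not. Of 21 fatty acid genes 18 passed, with the synthase FASN at 13.58 ± 0.14 and ACLY at 12.42 ± 0.06. Of 12 genes of gluconeogenesis and glycogen 5 passed (41.7%, beside 46.1% of all genes). They were the glycogen genes PYGL (11.35 ± 0.02), GBE1, PYGB and GYS1 and the mitochondrial PCK2 (9.07 ± 0.10), and the gluconeogenic PCK1, FBP1, FBP2 and G6PC1 did not pass.

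The folate path had 12 of 17 genes detected (70.6%, beside 46.1% of all genes). Thymidylate synthase (TYMS) stood at 12.35 ± 0.09 and the mitochondrial SHMT2 at 12.34 ± 0.08. FOLR1 was joined by a second folate receptor, FOLR3, a secreted form, at 10.76, 10.82 and 10.66, while FOLR2, known from placenta and macrophages, read 5.50, 5.16 and 5.31. The receptors share much sequence, so part of the FOLR3 signal may come from FOLR1. The proton-coupled folate carrier SLC46A1 was not detected. Of 12 genes of iron handling 7 were detected (58.3%), and the exporter SLC40A1 was not. FTL, the transferrin receptor TFRC (13.51 ± 0.06), the iron sensor ACO1 (12.26 ± 0.08) and the siderophore binder LCN2 (11.80 ± 0.06) ranked highest.

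Among 91 gene families with at least 2 measured members, 18 had every member detected, 57 had several but not all, 14 had 1 and 2 had none. How many families of each kind the share of detected genes alone would give was not computed, so these counts do not show a choice among relatives. Over all lists together 589 of 1166 measured genes were detected (50.5%), beside 46.1% of all genes. The families hold well-known genes and were not drawn at random.

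In several enzyme families the member used in most tissues was detected and the testis member was not. PGK1, the phosphoglycerate kinase of glycolysis, read 12.96, 12.63 and 12.79, and its testis copy PGK2 4.86, 5.06 and 5.06. LDHA read 14.81, 14.68 and 14.49 and LDHB 14.02, 13.78 and 13.89, while the sperm form LDHC read 5.58, 5.77 and 5.57. PDHA1, a chain of pyruvate dehydrogenase, stood at 11.79 ± 0.12 and the testis copy PDHA2 at 5.34. SLC25A5, an ADP/ATP carrier, read 14.46 on each array and the sperm carrier SLC25A31 5.13, 4.96 and 5.45. GAPDHS, the sperm form of GAPDH, averaged 5.30.

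The 150 bases before the annotated start of these 4 pairs are printed with CpG dinucleotides in capitals (RefSeq, GRCh38.p14, on the strand of the gene). PGK1 is at chrX:78104098-78104247 on the plus strand, PGK2 at chr6:49787286-49787435 on the minus strand, LDHA at chr11:18394413-18394562 and LDHC at chr11:18412168-18412317, both on the plus strand. PDHA1 is at chrX:19343777-19343926, PDHA2 at chr4:95839943-95840092, SLC25A5 at chrX:119468294-119468443 and SLC25A31 at chr4:127730250-127730399, all on the plus strand.
PGK1: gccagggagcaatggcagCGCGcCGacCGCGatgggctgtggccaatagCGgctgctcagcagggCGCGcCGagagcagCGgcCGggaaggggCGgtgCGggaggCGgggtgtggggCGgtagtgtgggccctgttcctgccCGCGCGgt
PGK2: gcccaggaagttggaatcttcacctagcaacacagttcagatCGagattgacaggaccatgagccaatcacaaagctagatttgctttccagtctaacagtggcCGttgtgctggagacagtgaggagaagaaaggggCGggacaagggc
LDHA: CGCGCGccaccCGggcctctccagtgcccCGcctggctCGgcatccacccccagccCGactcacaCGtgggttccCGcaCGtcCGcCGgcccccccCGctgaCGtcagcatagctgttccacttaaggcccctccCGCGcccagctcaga
LDHC: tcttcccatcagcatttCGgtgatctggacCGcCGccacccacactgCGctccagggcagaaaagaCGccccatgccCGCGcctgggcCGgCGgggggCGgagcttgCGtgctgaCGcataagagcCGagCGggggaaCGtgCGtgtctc
PDHA1: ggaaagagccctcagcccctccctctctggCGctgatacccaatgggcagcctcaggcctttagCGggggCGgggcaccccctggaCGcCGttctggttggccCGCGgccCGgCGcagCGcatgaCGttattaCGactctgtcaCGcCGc
PDHA2: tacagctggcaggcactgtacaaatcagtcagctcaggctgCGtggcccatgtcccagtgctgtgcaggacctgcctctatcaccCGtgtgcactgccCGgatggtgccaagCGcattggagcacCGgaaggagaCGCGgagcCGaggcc
SLC25A5: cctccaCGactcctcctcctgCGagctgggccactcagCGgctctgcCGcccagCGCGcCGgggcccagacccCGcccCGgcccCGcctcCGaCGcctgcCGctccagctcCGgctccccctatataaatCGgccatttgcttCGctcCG
SLC25A31: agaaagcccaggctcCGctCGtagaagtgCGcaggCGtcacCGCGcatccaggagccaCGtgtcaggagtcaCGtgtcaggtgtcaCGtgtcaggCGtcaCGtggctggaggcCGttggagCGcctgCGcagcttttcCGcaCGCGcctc
PGK1 holds 18 CpG in this stretch and PGK2 3, and PDHA1 holds 14 and PDHA2 8. LDHA and LDHC hold 16 each, and SLC25A5 and SLC25A31 17 each. Over the window of 300 bases the detected member held more in all 4 pairs: PGK1 38 against 6 for PGK2, LDHA 29 against 25 for LDHC, PDHA1 31 against 17 for PDHA2, and SLC25A5 36 against 28 for SLC25A31. The SLC25A5 window holds the TATA motif.

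**Figure D5:**
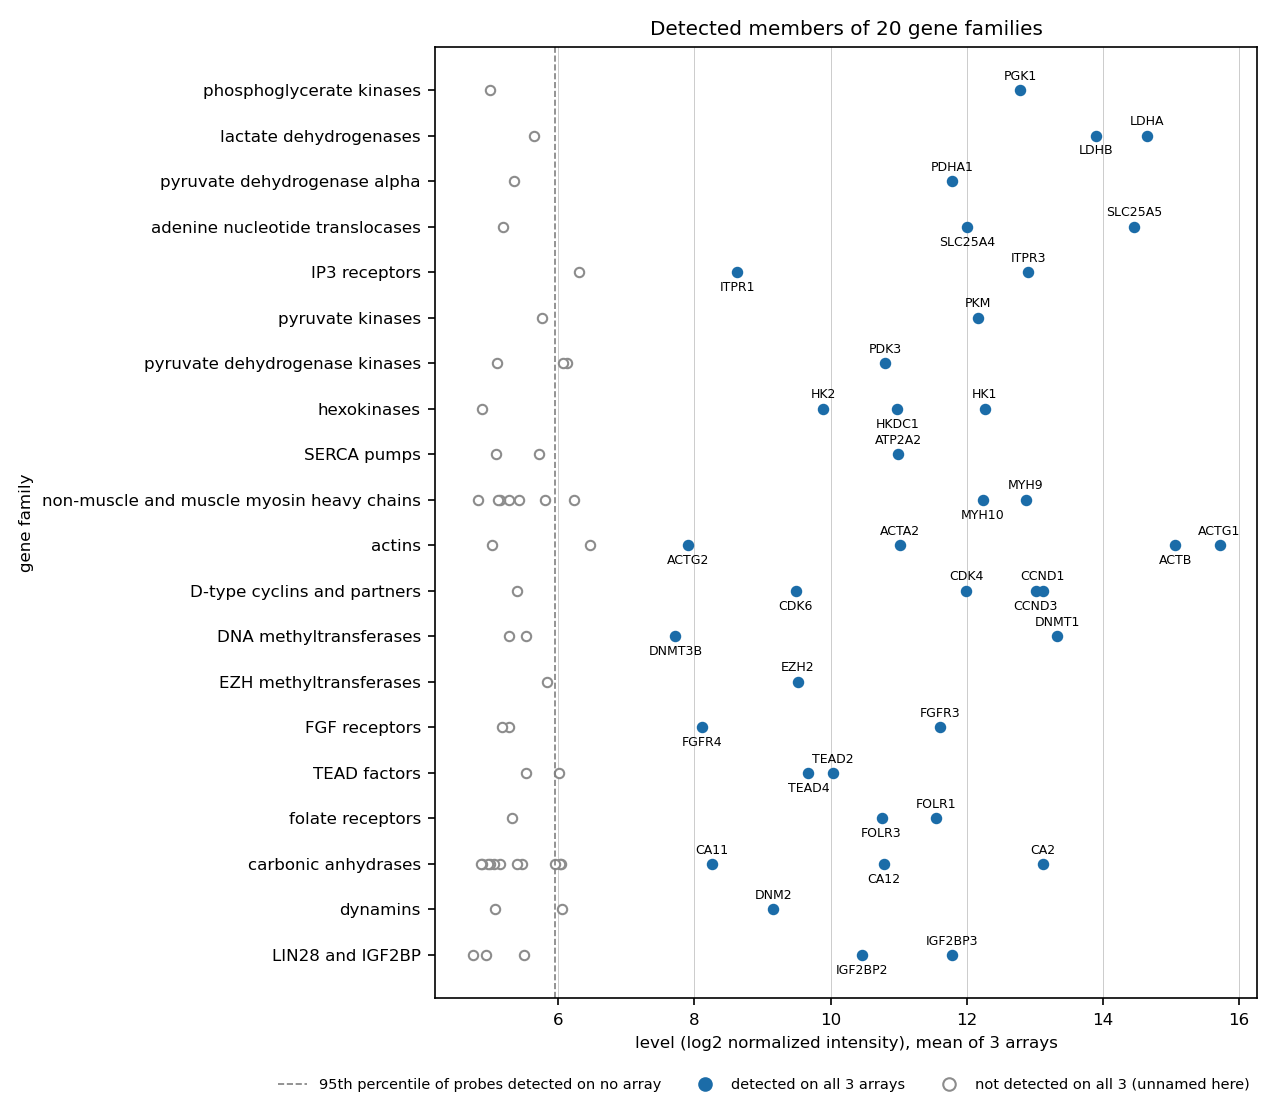
Mean level (log2 normalized intensity of the 3 arrays, x axis) of each member of 20 gene families (y axis), filled and named where detected on all 3 arrays and open where not, with a dashed line at the 95th percentile of probes detected on no array. PGK1, LDHA, SLC25A5 and DNMT1 were detected, and the open points of their families lie near the line.

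Other metabolic and transport families were also detected in part, beside 46.1% of all genes detected. Pyruvate kinase was read as PKM (12.17 ± 0.25) without the liver form PKLR, and of 4 pyruvate dehydrogenase kinases PDK3 was detected (10.80 ± 0.03) and PDK1, PDK2 and PDK4 were not. Hexokinase was read as HK1 (12.26 ± 0.11), HKDC1 (10.98 ± 0.13) and HK2 (9.90 ± 0.11), with 1 of 4 HK1 probes detected. The widely used cytochrome c oxidase chains COX4I1 (14.74 ± 0.04), COX6B1 (14.47 ± 0.12), COX8A (14.07 ± 0.07) and COX6A1 (12.33 ± 0.04) were detected, and COX4I2, COX6B2, COX8C and COX6A2 were not. ATP2A2, the calcium pump of most cells, ranked 1905 without ATP2A1 or ATP2A3, and the IP3 receptor ITPR3 stood at 12.91 ± 0.04 with ITPR1 at 8.63 ± 0.19 and without ITPR2. Of 14 carbonic anhydrases CA2 (13.12 ± 0.19), CA12 (10.79 ± 0.02) and CA11 (8.26 ± 0.21) were detected (21.4%). Of 11 aquaporins AQP11 was detected at 8.62 ± 0.05 (9.09%). EEF1A2, the elongation factor form known from neurons and muscle and raised in some ovarian tumours, read 14.21, 14.02 and 14.49 beside its close relative EEF1A1.

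Families of the cytoskeleton and the cell surface were detected in part. Of 9 myosin heavy chains MYH9 (12.87 ± 0.22) and MYH10 (12.23 ± 0.06), both non-muscle forms, were detected. Of 6 actins the cytoplasmic ACTG1 and ACTB and the smooth-muscle ACTA2 and ACTG2 were detected, ACTG2 at 7.90 ± 0.22. The laminins were led by LAMA5 (13.65 ± 0.12) and LAMC1 (12.95 ± 0.08), chains of basement membranes, and the integrins by ITGB1 (13.14 ± 0.12), ITGB5 (12.60 ± 0.19) and ITGAE (10.84 ± 0.22). Of the ITGB1 probes 2 of 4 were detected and the dimmest read 4.80, so its level is not settled. Of 17 claudins 8 were detected (47.1%, beside 46.1% of all genes). CLDN1 at 11.22 ± 0.14 came first, CLDN3 stood at 8.57 ± 0.20, and CLDN4 was not detected. Of 18 S100 proteins 8 were detected (44.4%), S100A4 (14.31 ± 0.13) and S100A10 (13.54 ± 0.06) first. LGALS1, a galectin, stood at 14.01 ± 0.12. The connexin GJC1 read 13.83 ± 0.05 with one probe and 5.55 with the other, so its place is not settled, and GJA1 stood at 8.95 ± 0.28.

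Chromatin and cell-cycle families were also read in part. The maintenance methyltransferase DNMT1 stood at 13.34 ± 0.02 and DNMT3B at 7.72 ± 0.29, while DNMT3A and DNMT3L were not detected. EZH2, the polycomb enzyme of dividing cells, stood at 9.52 ± 0.11 and EZH1 was not detected. SMARCA4 (12.18 ± 0.09) and SMARCA2 (9.42 ± 0.17), the 2 motor chains of SWI/SNF, were both detected, and ARID1A at 11.30 ± 0.06 without ARID1B. CCND1 read 13.08, 13.12 and 13.15 and CCND3 stood at 13.02 ± 0.09, without CCND2. MYC read 11.86, 11.92 and 11.74, and its relatives MYCN and MYCL were not detected. The oncofetal RNA-binding proteins IGF2BP3 (11.79 ± 0.15) and IGF2BP2 (10.46 ± 0.14) were detected and IGF2BP1, LIN28A and LIN28B were not.

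Among enzymes of detoxification, AKR1C2, an aldo-keto reductase of steroid and carbonyl metabolism, stood at 14.05 ± 0.09, AKR1C3 at 13.18 ± 0.05, AKR1B10 at 13.04 ± 0.09 and AKR1C4 at 13.02 ± 0.14. AKR1C1 was not detected (4.93), and 3 of 5 AKR1C2 probes and 1 of 2 AKR1C4 probes were not, in a family of near-identical sequences whose signals cannot be given to single genes. Of 16 glutathione S-transferases 10 were detected (62.5%, beside 46.1% of all genes), with a median percentile of 78.5. GSTP1 stood at 14.73 ± 0.02 and GSTM1 at 12.90 ± 0.07. Of 8 aldehyde dehydrogenases 5 were detected (62.5%), with a median percentile of 48.2. GSTM1 was detected with 3 of 3 probes, beside its close relative GSTM2 (12.75 ± 0.10), which may share its signal. All 4 peroxiredoxins with a probe were detected, PRDX1 first at 15.24 ± 0.19.

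Of 30 genes listed as cancer-testis genes, many of which are normally confined to germ cells and appear in tumours, 6 were detected (20%, beside 46.1% of all genes). MAGEA1 read 12.23, 12.27 and 12.43 with both probes detected, PAGE1 read 12.23, 12.32 and 12.34, and MAGEB2 stood at 10.44 ± 0.02. DCAF12 (9.96 ± 0.05), PRAME (8.94 ± 0.04) and TEX14 (7.03 ± 0.05) were the others. Normal tissues were not measured here, so detection of a listed gene such as DCAF12 is not read as gain of a germ cell gene. MAGEA3, MAGEA4, CTAG1B and CTCFL were not detected, so that MAGEA1 was read without these members of its group. Of 23 imprinted genes, which are expressed from 1 parental copy, 10 were detected (43.5%), near the share of all genes. IGF2R stood at 11.97 ± 0.03 and SNRPN at 11.66 ± 0.22, while IGF2, H19, MEG3, DLK1, PEG3 and CDKN1C were not detected. Of 29 surface proteins that antibodies target 15 were detected (51.7%), also near the share of all genes. ALCAM (10.90 ± 0.22) and CD70 (10.22 ± 0.14) were among them, beside EPCAM, FOLR1 and ERBB2.

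Among secreted proteins 10 of 19 serpins, inhibitors and growth factor binding proteins were detected (52.6%, beside 46.1% of all genes). SERPINE2, a thrombin and plasmin inhibitor, at 13.74 ± 0.05, IGFBP3 at 12.42 ± 0.09 and TIMP1, ranked 957, came first. Of 19 matrix metalloproteinases 3 were detected (15.8%). They were the epithelial MMP7 at 10.39, 10.24 and 10.27, MMP15 at 9.05 ± 0.19 and MMP24 at 7.54 ± 0.01. MMP1, MMP2, MMP9 and MMP14 were not detected. All 12 reference genes often used to scale measurements were detected, from GAPDH at 15.17 ± 0.06 to PPIA at 8.69 ± 0.16. PPIA is an abundant protein, and its single probe ranked 5612.

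The saline arrays differed little from each other. Across the 8653 detected genes the correlation of levels was 0.989 to 0.992 between arrays, a description over genes that are not independent, and 3 to 6 genes differed 2-fold or more between any pair. The SD over the 3 arrays had a median of 0.13 and fell with level, from 0.18 at 7 to 8 to 0.08 above 14. An SD over 0.5 was found in 19 genes (0.22%). Of the 8379 genes with a mean of 7 or more, the 15 with the largest SD lay between 7.14 and 8.5, in the dim part of the range. HBP1, a repressor of cell-cycle genes, read 7.55, 8.82 and 8.12 (SD 0.63), and CPT1B, the muscle form of the fatty acid importer, read 7.36, 6.73 and 7.95. ISG15, an interferon-induced ubiquitin-like protein, read 8.40, 8.03 and 9.06, GAS1 read 8.05, 7.43 and 6.89, and SEMA3C, a guidance cue, read 8.26, 7.95 and 7.25. BCL9L, LSM6, ABTB1, MIF4GD, NAPG, DPH6, COL4A2, TRAFD1, UBALD1 and SBNO2 made up the rest. No array stood behind them all: saline 1 was highest in 5, saline 2 in 4 and saline 3 in 6.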

How the data were processed

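Total RNA of IGROV-1 cells was read on Illumina bead arrays. The authors deposited linear intensities per probe, untouched by normalization or background subtraction per the file headers, and a detection p-value per probe was deposited beside it. The submitters' processing notes name BeadStudio, with the version not given in the sources used here. The authors' second deposited table of normalized intensities, with the method not given, was used as an alternative. The 3 saline arrays were background-corrected and quantile normalized to log2 values with neqc of limma 3.58.1 in R 4.3.3 (offset 16), starting from the deposited intensities. Of 48803 probes, 28098 had 1 gene symbol in the platform annotation, 28059 matched RefSeq GRCh38.p14 by gene number, 13 had several and 20692 had none there. 76 genes of the Y chromosome or of X inactivation were left out. The members, lists and rules were chosen with earlier results of these data known. Named are the 25 highest genes, members of the lists (up to 6 detected of highest mean and 6 not detected in lists over 12), the 15 genes of largest SD, and list members whose probes disagree. Names outside that rule are said to be so. The detection and rank step was tested on simulated data with known answers. Nothing was compared between groups, so no test was run. The 3 arrays limit the precision, and the SD measures the spread between samples that may be technical. Alternatives changed the detection rule, the normalization, the probe rule and the arrays used.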

Additional observations from a re-analysis of the deposited data

Results flagged for a closer look

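Probes with no gene symbol in the annotation used here entered no result above. Of these 20692 probes, 1614 were detected on all 3 saline arrays (7.80%), beside 39.1% of the named probes. They include 42 of the 100 brightest probes of the arrays, so the ranks given hold among named genes only. What these probes measure was not tested.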

How the results depend on the processing

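The number of detected genes was 8653, and it was 10288 at a detection p under 0.05, 6134 at a detection p of 0 on every array, 9483 on at least 1 array and 6660 when every probe had to pass. Leaving out saline 1, 2 or 3 gave 8720, 8799 and 8826. The 589 detected list members ranged from 447 with every probe required to 687 at a detection p under 0.05. Of 137 list counts 37 moved by over 1.5 times when every probe had to pass, 29 at a detection p of 0, 16 at a detection p under 0.05 and 5 on at least 1 array. The Müllerian list was among them, at 2 genes with every probe required in place of 6. The 25 highest genes were the same 25 under 4 other normalizations and 22 to 24 of them when 1 array was left out. Scaling to equal medians, the other offset and quantile normalization without background correction keep the order of probes within an array. The same 25 under these settings was therefore largely fixed in advance. The probe rule moved the highest genes: 15 of the 25 remained with the mean of a gene's detected probes. Of alternatives chosen after seeing the data, 14 remained with the dimmest detected probe and 14 with the median over all probes. A further such alternative, leaving out genes with a single probe, kept 15. That outcome was fixed by its rule, since 15 of the 25 genes have several probes. F2R fell from percentile 99.8 to 53.4 and MSH3 from 98.7 to 60.4 with the dimmest detected probe, a direct result of that choice. The largest shifts among 54 named genes were those of ZP3, 83.7 points down with the dimmest detected probe, and SLC7A5P2, 98.3 points down with the median over all probes. The median SD was 0.10 to 0.15 under the settings for which it was computed, which are the other normalizations, the mean of detected probes and leaving out an array. Leaving out saline 1 raised the detected aquaporins from 1 to 2, with no other list moved by over 1.5 times when an array was left out. No paired analysis was possible because no groups were compared. Signals near background limit what can be said of dim genes such as MUC16, and the signal of the brightest probes comes near the top of the intensity scale.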
